A study of Mus musculus with 6 samples.

Results

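The genes described here are the Wnt ligands, their Frizzled receptors and co-receptors, the secreted proteins that regulate them, and the dishevelled, destruction complex and TCF/LEF genes that carry the signal inward. They were chosen by name from the deposited value table, as probe sets annotated with a single symbol of these families, with the brightest probe set per gene. This gave 61 genes from 62 probe sets, out of 19938 genes in all. Of the 61, 49 passed the filter on dim probe sets and were tested among 13632 genes. Tcf7 had no such probe set and was not analysed here, and Fzd10os, a transcript of the opposite strand at Fzd10, entered through its name.

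The values come from 6 Affymetrix mouse gene arrays, 3 per group, hybridised with RNA of green cells sorted from mouse hearts at E12.5. All embryos came from matings of TNTCre, Yap flox and R26 mTmG strains, so cells of both groups carried the troponin T Cre, active in cardiomyocytes, and a reporter that turns green once Cre has acted. The Yap HET group was heterozygous for the floxed Yap gene, and the Yap KO group was the knockout. The comparison is therefore between complete loss of Yap and loss of 1 copy in the same sorted population, with no group that keeps both copies. The series describes 3 biological replicates per group, and the labels mention digestion of individual hearts. The sources used here do not say whether several hearts were combined on an array.

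Wnt ligands are secreted glycoproteins that bind Frizzled receptors together with Lrp5 or Lrp6. In the canonical branch, dishevelled proteins then hold back the destruction complex of Apc and axins, beta-catenin accumulates, and TCF/LEF factors switch their targets from repression to activation. In the non-canonical branches, ligands such as Wnt5a and Wnt11 act through Frizzled and Ror receptors on cell polarity and calcium signalling. R-spondins raise the number of receptors at the cell surface, and Sfrp, Wif and Dkk proteins bind ligands or co-receptors outside the cell. In the developing heart, canonical signals favour progenitor growth, and non-canonical ligands are needed for outflow tract formation.

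The targeted gene was examined first. Yap1 read 886, 927 and 871 in Yap HET replicates 1 to 3, against 103, 84.7 and 86.6 in the Yap KO replicates, a log2 change of -3.29 ± 0.08 (SE, limma adjusted p = 2.70e-06). All 3 Yap KO arrays matched their label, although the sources used here do not place the probe set against the floxed exons. The Yap KO values of Yap1 lay near the filter level, with 1 under it, and cannot be told from background. The size of the fall is thus that between the measured intensities. Median intensity over all probe sets lay between 132.0 and 139.6 on the Yap HET arrays and between 128.1 and 132.8 on the Yap KO arrays. All 16 cardiomyocyte markers were above the filter level of 85.7. Their summed intensity was 111773 to 113375 over the Yap HET arrays and 111118 to 113965 over the Yap KO arrays. Single markers could still differ. Of the 16, 1 rose and 0 fell (limma), against 5.16% and 4.76% of all genes tested. The risen marker was Nppa (log2 change 0.19 ± 0.05, SE, limma adjusted p = 0.049). The log2 change was above 0 for 8 of the 16 and below 0 for 8. Some markers of other cell types were above the filter level too, and some moved with genotype. The 12 mesenchymal markers summed to between 5929 and 6241 on Yap HET arrays and between 7347 and 9462 on Yap KO arrays. The endothelial sum was 2029 to 2112 against 2287 to 2529, with Tie1 under the filter level. For the epicardial list it was 4108 to 4989 against 2947 to 4253, with Muc16 under the filter level. The blood and macrophage sum was 2049 to 2248 against 2095 to 3703, with C1qa, C1qb and Adgre1 under the filter level. Of the 7 genes of this list tested, 3 had a log2 change above 0 and 4 below. Hbb-y had 232, 27.1 and 19.8 in Yap HET and 1295, 450 and 86.3 in Yap KO cells. Cd68 had 517, 621 and 574 against 499, 285 and 292. Hbb-y and Cd68 did not pass (limma adjusted p = 0.145 and 0.063). Of the 7 genes 1 rose and 0 fell (limma), against 5.16% and 4.76% of all genes tested. The risen gene was Lyz2, with 729, 964 and 730 in Yap HET and 1070, 1172 and 1092 in Yap KO cells (log2 change 0.47 ± 0.11, SE, limma adjusted p = 0.036). The smooth muscle sum was 16654 to 17336 against 15157 to 16811. The neural sum was 690.0 to 785 against 696 to 758, with Foxd3, Elavl4 and Stmn2 under the filter level. No listed marker was at 0.

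**Figure D1:**
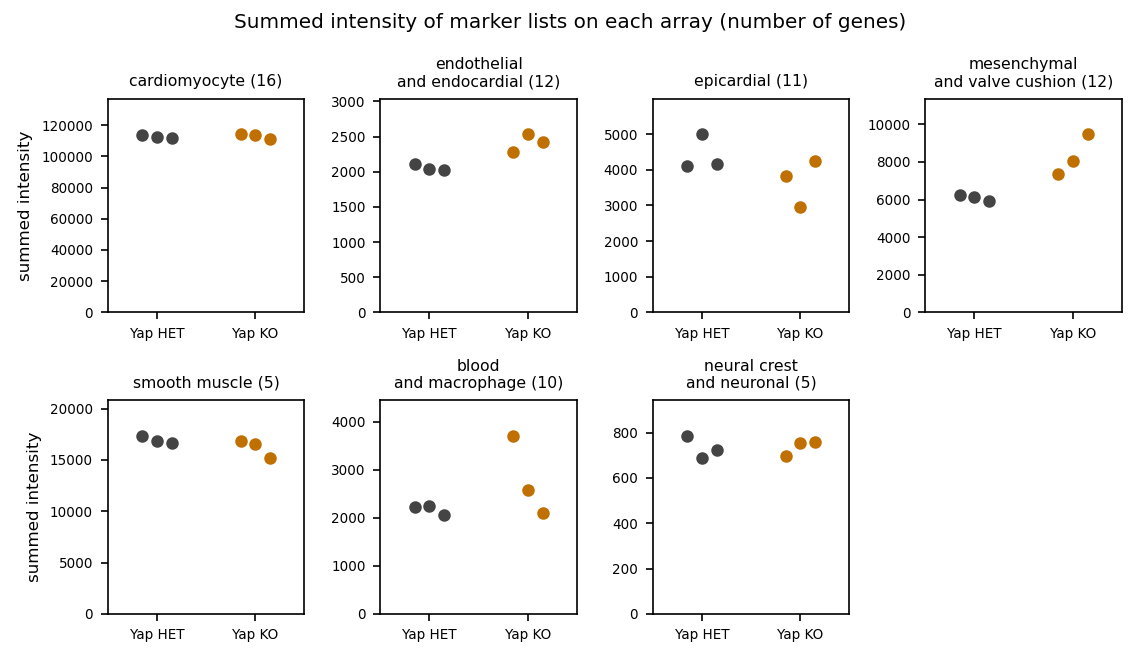
Summed linear intensity of each marker list (vertical axis) on the 3 Yap HET and 3 Yap KO arrays (points, replicates 1 to 3 from left to right), with the number of genes in each list in brackets. Cardiomyocyte sums overlap between groups, whereas mesenchymal sums reach 6241 at most in Yap HET cells and start at 7347 in Yap KO cells, and endothelial sums do not overlap either.

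Loss of Yap came with higher levels of several extracellular Wnt regulators and of 1 TCF factor, and with opposite changes among the ligands and among the R-spondins. Wif1, Dkk3, Rspo3, Wnt11, Fzd3 and Tcf7l1 rose in Yap KO cells, and Wnt5a and Rspo1 fell. Dkk2 also passed, but it is set apart because all its Yap HET values were under the filter level and it was tested only through its Yap KO values. In these sorted preparations, fewer cells of a type and less RNA per cell cannot be told apart. Of the 49 members tested, 7 rose and 2 fell (limma, adjusted p under 0.05), which is 14.3% and 4.08%. Over all genes tested, 5.16% rose and 4.76% fell, 9.93% in all. Without Dkk2 it was 6 and 2 of 48 members, and without all 44 genes called with a group mean under the filter level it was 5.06% and 4.58% of the rest. An unadjusted p under 0.05, a looser rule given for groups with few calls, was reached by 28.2% of all genes tested, 13.9% higher and 14.4% lower, and by 12 members higher and 6 lower. Of the 9 members past the adjusted threshold, Wif1 and Rspo3 differed by at least 1.5-fold, as did 167 of all 1353 genes called (12.3%). With median centring, rises made up 75.7% of the calls over all genes against 52.0% here, and 11 members rose and 2 fell. The median log2 change over the 49 was -0.0046 against -0.017 over all genes, and the median absolute log2 change was 0.13 against 0.097. Yap KO values lay wholly above the Yap HET values for 14 members and wholly below them for 4. Together these are 36.7% of members against 33.9% of all genes tested, of which 16.7% lay above and 17.2% below.

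Which members passed depended on single arrays. Tcf7l1, Wif1 and Wnt5a stayed past the threshold whichever array was left out, and Rspo3 did so except without Yap KO replicate 2 (limma adjusted p = 0.059). Of rises there were 3 when Yap HET replicate 1 was left out, 2 without Yap KO replicate 2, and 4 when Yap HET replicate 3, or Yap KO replicate 1 or 3, was left out. Of falls there was 1 when Yap HET replicate 1, or Yap KO replicate 1 or 2, was left out. Leaving out Yap HET replicate 2 gave 4, with Wnt4 and Wnt9a added, and leaving out Yap KO replicate 3 gave 3, with Sfrp2 added.

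**Figure D2:**
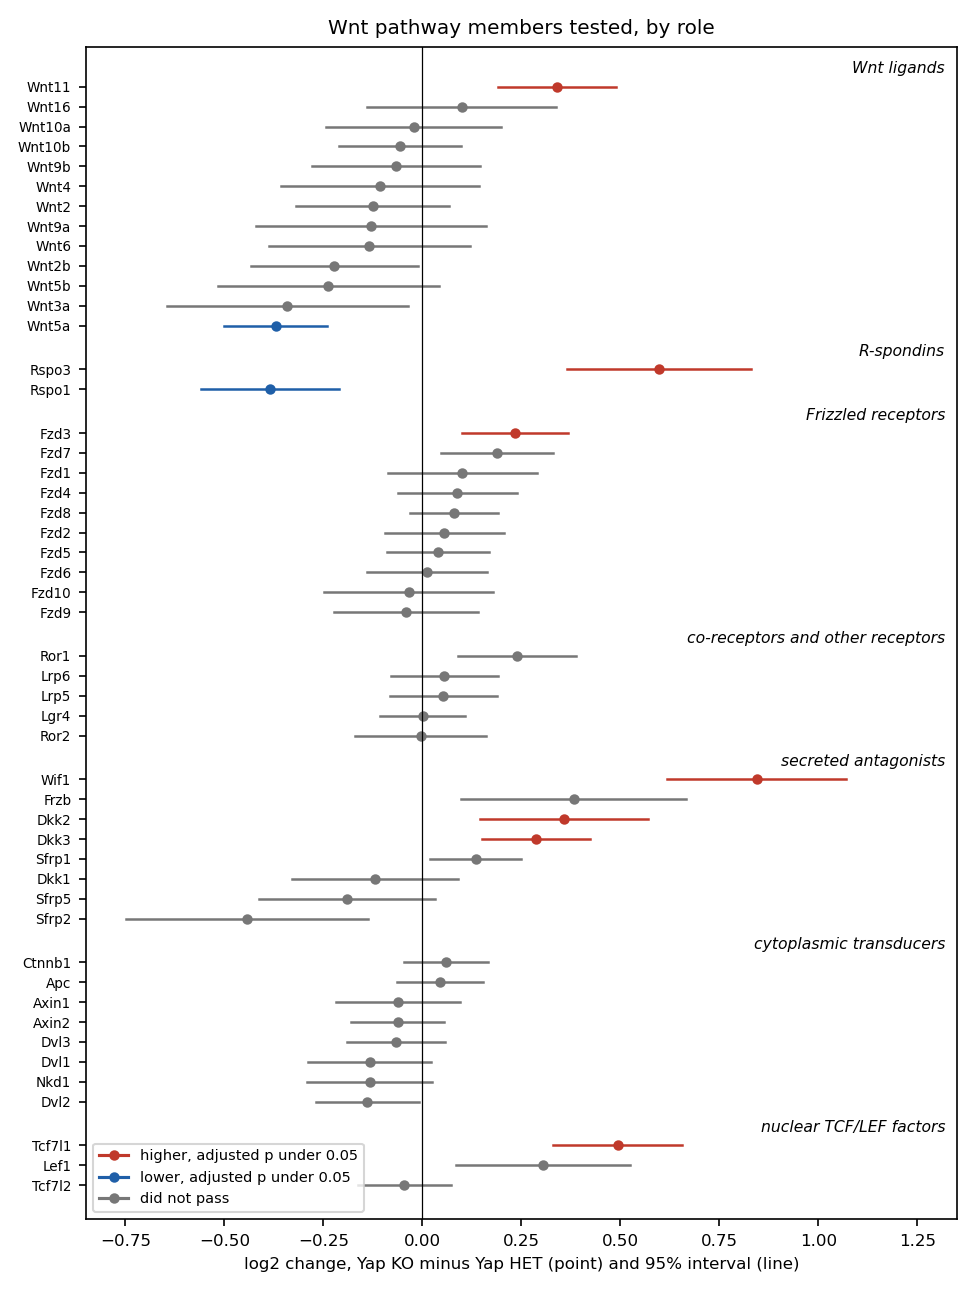
Log2 change, Yap KO minus Yap HET (horizontal axis, points), with its 95% interval (lines) for the 49 members tested, grouped by role (vertical axis); colours mark members past an adjusted p of 0.05. Wif1 has the highest value at 0.84, against Yap HET values just above the filter level. Of the 13 ligands 11 lie left of 0, as do 55.0% of all genes. That number of ligands was 9 to 10 under other scalings and 9 to 12 with 1 array left out. With the filter at the 60th percentile it was 2 of 3.

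Among the 13 ligand genes tested, Wnt5a fell and Wnt11 rose, and both encode ligands known chiefly for non-canonical signalling. Wnt5a read 975, 1002 and 931 on Yap HET replicates 1, 2 and 3 and 712, 773 and 765 on the Yap KO replicates. Every Yap KO array was below every Yap HET array, and the means were 969.7 ± 36.0 (SD, n = 3) and 750.1 ± 32.8. This was a 1.29-fold lower level, a log2 change of -0.37 ± 0.06 (SE, limma adjusted p = 0.0089). Wnt11 had 225, 232 and 201 in Yap HET and 274, 279 and 277 in Yap KO cells. The Yap KO arrays were close together and all higher, a 1.26-fold difference (log2 change 0.34 ± 0.06, limma adjusted p = 0.019). Its call was lost when Yap HET replicate 1 (limma adjusted p = 0.061) or Yap KO replicate 2 (0.082) or 3 (0.061) was left out.

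The other 11 ligand genes did not pass. The calls were thus 7.69% of the ligands each way, against 5.16% higher and 4.76% lower over all genes tested. Wnt3a, a canonical ligand, had 99.8, 92.6 and 127 in Yap HET and 86.0, 72.7 and 92.7 in Yap KO cells. These groups overlapped by a small margin, and some arrays were near or under the filter level (log2 change -0.34 ± 0.13, limma adjusted p = 0.14). The log2 change was below 0 for 11 of the 13 ligands tested and for 55.0% of all genes, and the ligands had a median of -0.13. Under the other scalings it was below 0 for 9 to 10 ligands, with medians from -0.086 to -0.065, and for 37.1% to 49.9% of all genes. Most ligands were dim. With the filter at the 60th percentile 3 of them were tested and 2 were below 0, as were 50.6% of all genes. The median was -0.045 without Yap HET replicate 3 (9 ligands below 0), -0.080 without Yap HET replicate 1 (11) and -0.19 without Yap HET replicate 2 (12). The precision differed between ligands, with a 95% interval of -0.21 to 0.097 on the log2 scale for Wnt10b and of -0.64 to -0.037 for Wnt3a. At an unadjusted limma p under 0.05 there was 1 higher ligand, Wnt11, and 3 lower, Wnt5a, Wnt3a and Wnt2b, a share of the 13 near the 28.2% of all genes. Wnt1, Wnt3, Wnt7a, Wnt7b, Wnt8a and Wnt8b, the last with a mean of 34.3 over the 6 arrays, were under the filter level and were not tested. The bright probe set of Wnt4 was used, and the mean of its second probe set was 82.2 for Yap HET and 74.0 for Yap KO arrays.

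The promoters of the changed members were read for binding words of TEAD factors, through which YAP acts on DNA, and of TCF/LEF factors. The words were GGAATG for TEAD and CTTTGA for TCF/LEF, each searched on both strands in the 250 bases before a start site, in RefSeq sequence of build GRCm38.p6. Sequences were found for 41 of the 61 members, with 49 start sites, and for 5 of the 9 changed genes, with 6. The TEAD word was in 0 of these 6 windows, in 2 of the 49 member windows (4.08%) and in 12.6% of 32841 promoters in all. The TCF/LEF word was in 1 of the 6, in 7 of the 49 (14.3%) and in 13.8% of all promoters. Member windows had a median GC content of 66.8% against 52.4% for all, so the shares are not between windows of like composition. The windows of the ligand, the antagonist and the TCF factor with a higher level in Yap KO cells are shown, with the match in capitals; that of Wnt11 (chr7:98834862-98835111, plus strand) holds TCAAAG, the reverse complement of CTTTGA, starting 50 bases before the start site. A second Wnt11 start site in the table had no match, nor had the windows of Wif1 (chr10:121033754-121034003, plus strand) and Tcf7l1 (chr6:72789046-72789295, minus strand). A match is a description of letters and not a bound site.
Wnt11: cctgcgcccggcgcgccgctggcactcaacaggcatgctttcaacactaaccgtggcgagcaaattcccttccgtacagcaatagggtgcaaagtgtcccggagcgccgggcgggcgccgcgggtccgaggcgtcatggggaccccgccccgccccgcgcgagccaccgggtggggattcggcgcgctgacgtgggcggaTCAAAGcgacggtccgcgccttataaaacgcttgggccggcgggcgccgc
Wif1: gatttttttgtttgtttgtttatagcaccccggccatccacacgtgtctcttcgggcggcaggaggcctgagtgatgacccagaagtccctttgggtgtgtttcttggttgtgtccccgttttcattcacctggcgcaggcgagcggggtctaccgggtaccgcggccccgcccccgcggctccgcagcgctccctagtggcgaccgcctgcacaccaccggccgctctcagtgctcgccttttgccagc
Tcf7l1: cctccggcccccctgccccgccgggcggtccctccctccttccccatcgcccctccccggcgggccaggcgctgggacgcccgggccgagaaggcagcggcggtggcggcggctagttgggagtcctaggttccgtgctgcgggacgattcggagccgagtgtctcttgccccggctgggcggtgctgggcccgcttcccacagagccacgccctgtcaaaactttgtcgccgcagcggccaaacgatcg

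R-spondins bind Lgr4 and Lgr5 and, with them, keep the ligases Znrf3 and Rnf43 from removing Frizzled receptors. The 2 members tested moved in opposite directions. Rspo3 had 938, 770.4 and 718 in Yap HET and 1236, 1282 and 1134 in Yap KO cells, with no overlap. Its mean rose from 809 ± 115 to 1217 ± 75.4, 1.51-fold (log2 change 0.60 ± 0.10, limma adjusted p = 0.013; 0.059 without Yap KO replicate 2). Rspo1 had 165, 166 and 189 in Yap HET and 129, 126 and 143 in Yap KO cells, again without overlap. It was 1.31-fold lower (log2 change -0.39 ± 0.08, limma adjusted p = 0.020). The call of Rspo1 was lost when Yap HET replicate 1 (limma adjusted p = 0.056) or Yap KO replicate 1 (0.053) or 2 (0.090) was left out. Rspo2 and Rspo4 were under the filter level on every array.

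Of the Frizzled genes, Fzd3, a receptor used in planar polarity and axon guidance, passed the test. It had 454, 473 and 425 in Yap HET and 511, 536 and 542 in Yap KO cells. The groups did not overlap and the difference was 1.18-fold (log2 change 0.23 ± 0.06, limma adjusted p = 0.045). Fzd3 kept its call only without Yap HET replicate 2; without Yap HET replicate 1 or 3 the limma adjusted p was 0.13 and 0.098, and without Yap KO replicate 1, 2 or 3 it was 0.060, 0.15 and 0.13. Fzd7, a receptor of both branches, had 535, 570.3 and 604 in Yap HET and 660.3, 622 and 663 in Yap KO cells (log2 change 0.19 ± 0.06, limma adjusted p = 0.093). Fzd8 had 717 to 733 and 748 to 789.7 (log2 change 0.080 ± 0.05, limma adjusted p = 0.31). In both, the groups were apart but the difference did not pass. Of 10 Frizzled genes tested 1 rose and 0 fell, against 5.16% and 4.76% of all genes tested. By the unadjusted limma p at 0.05 it was 2 higher and 0 lower, against 28.2% of all genes in either direction. The log2 change was above 0 for 8 of 10 and for 45.0% of all genes. It was above 0 for 9 or 10 under the other scalings, where the share of all genes was 50.1% to 62.9%. With array weights it was above 0 for 6, and with 1 array left out for 7 (without Yap HET replicate 2 or 3) to 9. Fzd10os, at a mean of 84.3, was under the filter level.

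Co-receptors and other receptors showed 0 calls among 5 tested (limma), and by the unadjusted p at 0.05 it was 1 higher and 0 lower, where 28.2% of all genes passed. That gene was Ror1, a receptor tyrosine kinase that binds Wnt5a, with 1209, 1091 and 1236 in Yap HET and 1350.5, 1452 and 1365 in Yap KO cells. All Yap KO values were higher, yet the difference did not pass (log2 change 0.24 ± 0.06, limma adjusted p = 0.056). Its close relative Ror2 had a log2 change of -0.005, with a 95% interval from -0.17 to 0.16. For the canonical co-receptors the intervals were as narrow, -0.080 to 0.19 for Lrp6 (0.056 ± 0.06, limma adjusted p = 0.57) and -0.081 to 0.19 for Lrp5 (0.053 ± 0.06, limma adjusted p = 0.59). The R-spondin receptor gene Lgr4 read between 1613 and 1662 on all 6 arrays, and its interval was -0.11 to 0.11. Lgr5 was under the filter level on every array.

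Secreted antagonists held the member with the lowest p-value. Wif1, which encodes a protein that binds Wnt ligands directly, had 95.0, 87.4 and 91.8 in Yap HET and 139.5, 177 and 178 in Yap KO cells. All Yap KO arrays were higher, with the first below the other two. The mean rose from 91.4 ± 3.79 to 165 ± 22.1 (log2 change 0.84 ± 0.10, limma adjusted p = 0.0035). The Yap HET level of Wif1 was just above the filter level and cannot be told from background, so the size of the difference is that between the measured intensities. Dkk3, a divergent dickkopf gene whose link to Wnt signalling is less settled than that of Dkk1, had 1227, 1347 and 1215 in Yap HET and 1571, 1566 and 1483 in Yap KO cells. The groups did not overlap (log2 change 0.29 ± 0.06, limma adjusted p = 0.026). Leaving out Yap HET replicate 2 kept the call of Dkk3. For any other array left out, the limma adjusted p was between 0.051 (Yap KO replicate 3) and 0.11 (Yap KO replicate 2).

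Dkk2, which encodes a ligand of Lrp5 and Lrp6, was dim. It had 83.2, 79.8 and 76.9 in Yap HET and 106, 114 and 88.9 in Yap KO cells (log2 change 0.36 ± 0.09, limma adjusted p = 0.049). All its Yap HET values were under the filter level, so it entered the test through its Yap KO values. Its call held without Yap KO replicate 3, and for the other arrays left out in turn the limma adjusted p was between 0.075 (Yap HET replicate 2) and 0.15 (Yap KO replicate 2). The other antagonists did not pass. Sfrp2, a Frizzled-related decoy, had 488, 399.7 and 438 in Yap HET and 276, 311 and 396 in Yap KO cells, the groups meeting at about the same level (log2 change -0.44 ± 0.13, limma adjusted p = 0.074). It passed without Yap KO replicate 3. Its relative Frzb had 287, 249.5 and 206 against 286, 335 and 340.1, which overlap at the top of the Yap HET range (log2 change 0.38 ± 0.12, limma adjusted p = 0.090). Sfrp1 was between 3223 and 3445 in Yap HET and between 3626 and 3725 in Yap KO cells, apart but close (log2 change 0.13 ± 0.05, limma adjusted p = 0.13). For Dkk1, the best known Lrp6 antagonist, the log2 change was -0.12 with an interval from -0.33 to 0.090. Of the 7 antagonists tested other than Dkk2, 2 rose and 0 fell (limma). Over all genes, without those called with a group mean under the filter level, it was 5.06% and 4.58%. By the unadjusted p at 0.05 it was 4 of these 7 antagonists higher and 1 lower. With the same genes left out it was 1872 higher and 1935 lower of 13588 genes, and with none left out 13.9% and 14.4% of all genes. Dkk4 and Sfrp4 were under the filter level on every array.

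**Figure D3:**
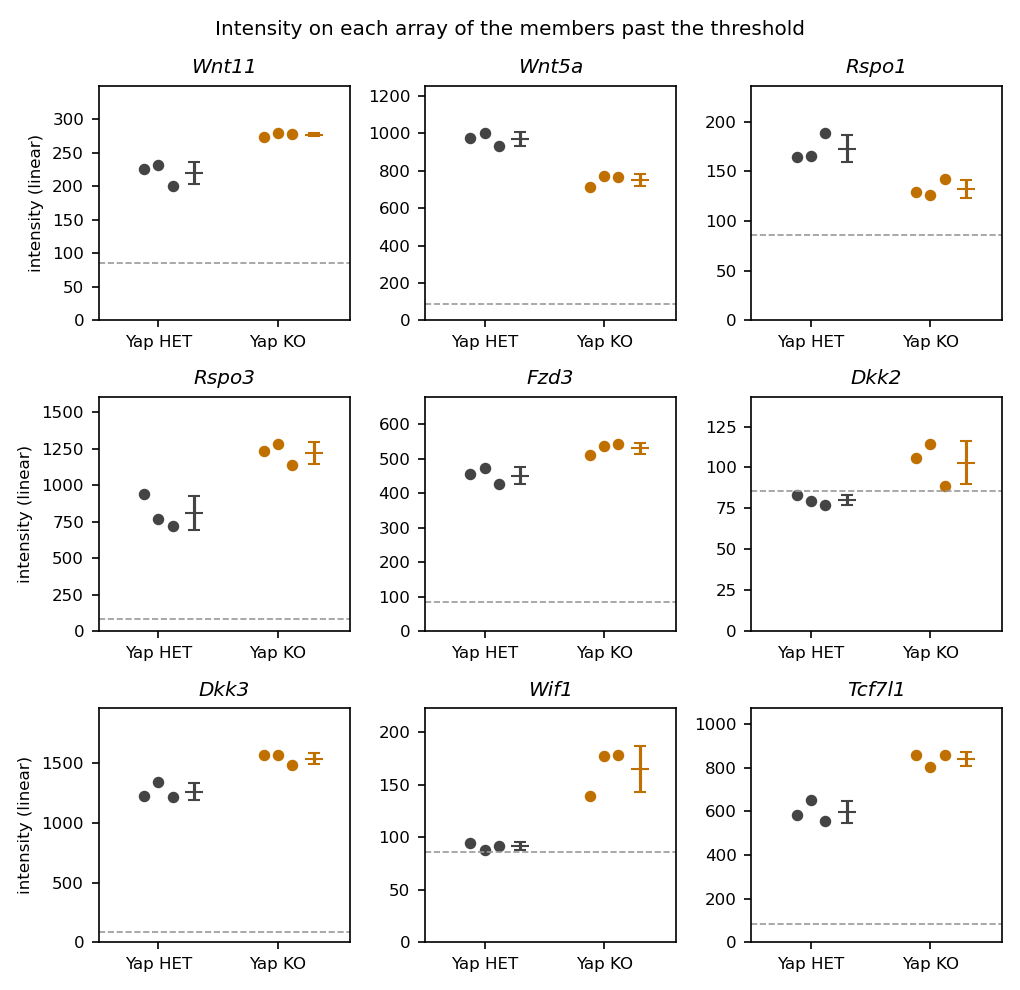
Linear intensity (vertical axis, from 0) on each array for the 9 members past the threshold; points are replicates 1 to 3 from left to right, bars beside them the mean and SD of 3 arrays, and the dashed line the filter level of 85.7. In all 9 panels the groups do not overlap, and Dkk2 and Wif1 lie near the filter level in Yap HET cells.

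Inside the cell, dishevelled genes relay the signal, axins and Apc build the complex that marks beta-catenin for destruction, and Nkd1 restrains dishevelled. Of these 8 cytoplasmic transducers 0 passed (limma), and by the unadjusted p at 0.05 it was 0 higher and 1 lower, where 28.2% of all genes passed. Ctnnb1, the gene of beta-catenin, had 4121, 4096 and 4099 in Yap HET and 4312, 4301 and 4220.2 in Yap KO cells. The groups did not overlap, but the difference was 1.04-fold, with a 95% interval from -0.046 to 0.16 on the log2 scale (0.059 ± 0.05, limma adjusted p = 0.43). Apc also had higher values on all Yap KO arrays (844 ± 12.6 against 818 ± 13.3, log2 change 0.044 ± 0.05, limma adjusted p = 0.57). Axin2, a feedback gene that is widely read as a reporter of canonical signalling, had a log2 change of -0.06 with an interval from -0.18 to 0.055. Dvl2 had 542, 564 and 524 against 517, 475 and 488, lower on all Yap KO arrays (log2 change -0.14 ± 0.06, limma adjusted p = 0.15). Dvl1 and Nkd1 had log2 changes of -0.13 ± 0.07 each (limma adjusted p = 0.24 for both).

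The TCF/LEF factors bind DNA and carry beta-catenin to their targets. Tcf7l1, known mainly as a repressor in the absence of beta-catenin, had 584, 653 and 556 in Yap HET and 859, 803 and 858 in Yap KO cells. The mean rose from 598 ± 49.9 to 839.9 ± 32.0, 1.41-fold and with a wide gap between groups (log2 change 0.49 ± 0.07, limma adjusted p = 0.0070). Lef1, mainly an activator, had 555, 535 and 441 in Yap HET and 673, 624 and 587 in Yap KO cells. These groups were apart too, but the difference did not pass (log2 change 0.30 ± 0.10, limma adjusted p = 0.085). Tcf7l2 had a log2 change of -0.045, with an interval from -0.16 to 0.073 (limma adjusted p = 0.60), and its sign turned to 0.016 with median centring.

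Markers of mesenchymal cells moved in the same comparison as the Wnt members. Of the 12 mesenchymal and valve cushion markers 5 rose and 0 fell (limma), against 5.16% and 4.76% of all genes tested. By the unadjusted p at 0.05 it was 9 and 0, against 13.9% and 14.4% of all genes. The median log2 change of these 12 markers was 0.42. Pdgfra, Tcf21, Pdgfrb, Postn and Sox9 passed, and were 1.97-, 1.90-, 1.66-, 1.65- and 1.31-fold higher. The other 7, Col1a1, Col1a2, Col3a1, Dcn, Lum, Twist1 and Prrx1, did not pass, and the log2 change of Dcn was -0.004. The endothelial and endocardial list had 3 rises (Kdr, Eng and Nfatc1) and 1 fall (Npr3) among 11 tested. These are 27.3% and 9.09%, against 5.16% and 4.76% of all genes, and the other 7 did not pass. Of 10 epicardial markers tested 1 rose, Tcf21, which is also in the mesenchymal list, and 0 fell (limma). By the unadjusted p it was 1 and 5, against 13.9% and 14.4% of all genes, with a median log2 change of -0.31. The part of these cell types in the changes of the Wnt members was not tested.

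A second set of Wnt pathway genes outside these families was described in the same way, in 5 lists that hold 122 measured genes, 112 of them tested. Of these 13 rose and 6 fell, 11.6% and 5.36% against 5.16% and 4.76% of all genes tested, with a median log2 change of 0.01. Celsr1, Ephb3, Myc, Mycn, Nkd2 and Tmem88 stayed past the threshold whichever array was left out. Of rises there were 3 when Yap HET replicate 1, or Yap KO replicate 2 or 3, was left out, and 5 without Yap HET replicate 3. With those first 3 arrays left out in turn, 4 falls were called each time.

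At the membrane and outside the cell, 2 of 18 genes rose and 2 fell. That is 11.1% each way, against 5.16% higher and 4.76% lower over all genes tested. Tmem88, a membrane protein gene whose product binds dishevelled and limits canonical signalling, had 334, 388 and 365 in Yap HET and 225, 179 and 148 in Yap KO cells, lower on all arrays (log2 change -0.997 ± 0.14, limma adjusted p = 0.0066). Lrp4, a co-receptor for sclerostin and agrin, fell, with a log2 difference of -0.39 ± 0.07 (limma adjusted p = 0.020, and 0.069 without Yap KO replicate 2). The dickkopf-like gene Dkkl1 (0.23 ± 0.05) and the glypican gene Gpc4 (0.23 ± 0.05), whose product holds ligands at the cell surface, rose. Their limma adjusted p-values were 0.029 and 0.033, and reached 0.12 without Yap HET replicate 1 for Dkkl1 and 0.13 without Yap KO replicate 2 for Gpc4. Porcn and Wls, needed for ligand secretion, and Znrf3 and Notum, which end signalling, did not pass, and Rnf43 was under the filter level.

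Among 22 cytoplasmic regulators, Nkd2 fell and Dact3 rose. That is 4.55% each way, near the 4.76% lower and 5.16% higher of all genes tested. Nkd2, a relative of Nkd1 that also restrains dishevelled, had 259.6, 223 and 238 in Yap HET and 160.4, 167 and 153 in Yap KO cells. It was clearly lower on all arrays (log2 change -0.58 ± 0.07, limma adjusted p = 0.0038). Dact3 had 656, 706 and 584 against 759, 831 and 810.0 (log2 change 0.31 ± 0.08, limma adjusted p = 0.047, and 0.16 without Yap KO replicate 2). The kinase genes Gsk3a, Gsk3b and the casein kinase genes of the list did not pass. Of 22 nuclear partners of beta-catenin 2 rose and 0 fell (limma), 9.09% called against 9.93% of all genes tested. By the unadjusted p at 0.05 it was 4 and 1, where 28.2% of all genes passed. Ctnnbip1, whose product ICAT keeps beta-catenin from TCF factors, had 477, 483 and 448 against 549, 606 and 592 (log2 change 0.31 ± 0.06, limma adjusted p = 0.019, and 0.088 without Yap KO replicate 2). Tbl1xr1, a cofactor that exchanges corepressors, rose by 0.26 ± 0.05 (limma adjusted p = 0.024, and 0.092 without Yap HET replicate 1).

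In the planar polarity and non-canonical list, 3 of 23 genes rose and 1 fell. These are 13.0% and 4.35%, against 5.16% and 4.76% of all genes tested. Celsr1, a polarity cadherin gene, had 531, 538 and 532 in Yap HET and 417, 447 and 418 in Yap KO cells, tight within groups and lower in every Yap KO array (log2 change -0.32 ± 0.05, limma adjusted p = 0.010). The formin gene Daam2, whose product links dishevelled to actin, rose by 0.47 ± 0.11 (limma adjusted p = 0.038, and 0.13 without Yap HET replicate 1). The calcium-responsive factor genes Nfatc1 (0.31 ± 0.08) and Nfatc4 (0.38 ± 0.09) rose as well, with limma adjusted p-values of 0.044 for both, and of 0.13 and 0.15 without Yap KO replicate 2. Nfatc1 also marks endocardial cells and is in that list of markers. Vangl1 and Vangl2, core polarity genes, did not pass.

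Genes known as beta-catenin targets in other tissues moved both ways, with 5 rises and 2 falls among 27 tested. These are 18.5% and 7.41%, against 5.16% and 4.76% of all genes tested. Ephb3, an ephrin receptor gene, had 869, 961 and 875 in Yap HET and 1317, 1282 and 1237 in Yap KO cells, a clear separation (log2 change 0.51 ± 0.06, limma adjusted p = 0.0037). The growth regulator genes Myc and Mycn moved in opposite directions, by 0.30 ± 0.05 and -0.48 ± 0.06 (limma adjusted p = 0.011 and 0.0039). Tbx3, a T-box factor of the conduction system, rose by 0.47 ± 0.09 (limma adjusted p = 0.018, and 0.073 without Yap HET replicate 1). Sox9 (0.39 ± 0.07) and Snai2 (0.52 ± 0.12), factors of valve mesenchyme, rose with limma adjusted p-values of 0.014 and 0.036, which were 0.066 and 0.11 without Yap KO replicate 2. Sox9 is also in the mesenchymal marker list. Tnfrsf19, the receptor gene known as Troy, fell by 0.24 ± 0.05 (limma adjusted p = 0.028, and 0.11 without Yap HET replicate 1). Ccnd1 and Bmp4 did not pass, and Sp5, a target used in many tissues as a reporter, was under the filter level.

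**Figure D4:**
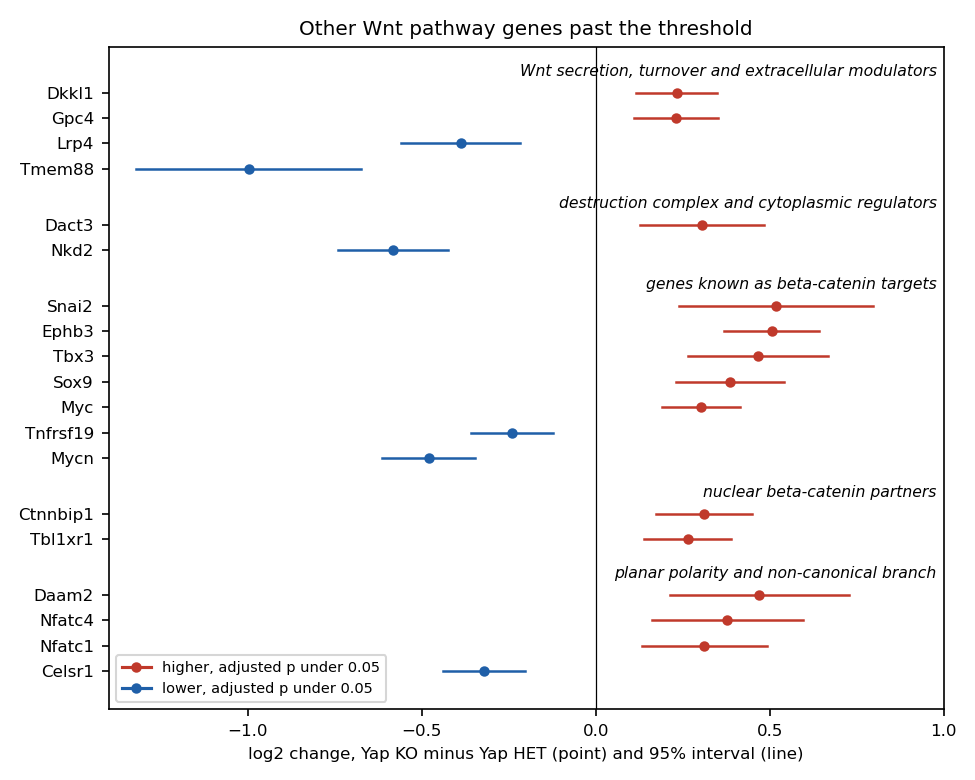
Log2 change, Yap KO minus Yap HET (horizontal axis, points), with its 95% interval (lines) for the 19 other Wnt pathway genes past the threshold, grouped by list (vertical axis). Tmem88 lies lowest at -0.997, and 13 of the 19 lie right of 0.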

How the data were processed

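The authors deposited probe set intensities on a linear scale, made with RMA per the submitters' processing notes, for 35556 probe sets on 6 arrays; the sources used here do not say how the linear scale was reached. Log2 was taken here, whereas the design had allowed for deposited log2 values. Gene symbols came from the platform annotation (21789 with 1 symbol, 1621 with several, 12146 with none), and 21698 symbols were checked by Entrez identifier against RefSeq. The brightest probe set per gene was kept, and genes with a mean under the 40th percentile of all probe sets, an intensity of 85.7, were left out. No detection call was used. limma 3.58.1 (lmFit, eBayes; R 4.3.3) compared the groups, with Benjamini-Hochberg adjustment over 13632 genes, a threshold of 0.05 and genotype as the only term. The number of arrays limits the precision.

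The members and lists were chosen with earlier results of these data known. The genes named were Yap1, members past the threshold or whose groups did not overlap, the 3 of smallest p per role, and, in the other lists, genes past the threshold and the 2 of smallest p. Ror2, Lgr4, Axin2, Dkk1, Frzb, Wnt10b and the genes named without values fall outside it and were picked with their values known. The cell type markers named singly fall outside it too, apart from those also in the other lists. Probe sets of similar genes can cross-hybridise. Log2 intensities correlated at 0.992 to 0.996 within groups. On simulated data with 50 genes at each size among 13632, the test recovered 20% of changes of 0.25, 80% of 0.5, 98% of 1 and 100% of 2 on the log2 scale, with 7 false calls among 156. The simulation changed far fewer genes than the 1353 called here. Its noise was independent, with SDs shuffled over genes, so its rates need not hold for these data. Alternatives changed the filter (none, or the 60th percentile), the probe set rule (mean per gene), the scaling (quantile, median centring or cyclic loess) and the model (array weights, a trended and robust prior, or a block for replicate number), or left out each array in turn.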

Additional observations from a re-analysis of the deposited data

How the results depend on the processing

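Yap1 kept its direction and call in all 15 alternatives, as did Wif1, Tcf7l1 and Wnt5a wherever they were tested. The main counts were 704 genes higher and 649 lower, 7 and 2 members, and 13 and 6 other Wnt pathway genes. With no filter on dim genes they were 271 and 237, 3 and 1, and 3 and 4, with 19938 genes tested. With a trended and robust prior they were 1189 and 1057, 12 and 3, and 25 and 10. With array weights they were 2038 and 2579, 10 and 8, and 33 and 18. Median centring gave 1055 and 339 genes, so 75.7% of calls were rises against 52.0%, with 11 and 2 members and 20 and 5 other genes; it moved the median of all genes from -0.017 to 0.044 on the log2 scale and turned Tcf7l2 to 0.016. With the replicate number as a block the counts were 395 and 303, 4 and 3, and 6 and 5. Same-numbered arrays of the 2 groups deviated with correlations of -0.076, -0.17 and 0.12, so the numbers were not taken to pair samples. Leaving out 1 array gave 214 to 783 genes higher and 206 to 597 lower, 2 to 6 and 1 to 4 members, and 3 to 12 and 4 to 7 other genes; the largest losses were without Yap KO replicate 2 and Yap HET replicate 1. The other alternatives kept all 6 counts within 1.5 times, but not always the same genes. With the filter at the 60th percentile 33 members were tested, and 7 rose and 2 fell. Of these, 5 rises and 1 fall were shared with the main result. Lef1 and Ror1 were added as rises and Sfrp2 as a fall. Over the 24 named members, 305 of 356 values stayed on their side of the threshold, 30 lost it, 20 gained it and 1 turned. Levels near 85.7, as of Dkk2, Wif1 and Wnt3a, and of Yap1 in Yap KO cells, cannot be told from background.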
